A study of Mus musculus with 64 samples.

Results

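The array used in this study carried 6963 features, and 73 of them have an identifier that begins with IRchip2. They form a small collection beside the 6664 features that begin with MSK, and they were chosen here by that identifier alone. RNA came from 3T3-L1 adipocytes, a mouse fibroblast line that is turned into fat cells in culture, and each array compared the Cy5-labelled RNA of 1 culture with Cy3-labelled RNA pooled from untreated differentiated cells. In all there were 64 arrays, of which 21 were titled TNF+ASA+TGZ, 21 TNF and 22 vehicle. ASA and TGZ are read here as acetylsalicylic acid (aspirin) and troglitazone, a reading of the labels' abbreviations. The identifier of each IRchip2 feature is a well position with the ending Hum or Pob, whose meaning the labels do not give. None of the identifiers matched the gene table (0 of 73), so the features are named by position, no gene or sequence is given for them, and the adipocyte identity of the cells could not be checked on marker genes.

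Adipocytes were used 8 to 12 days after differentiation began. All 3 groups were labelled as receiving TNF at 3 ng/ml for 48 h in medium with 10% serum, and then a second step of 24 h. In the TNF+ASA+TGZ group, called the combination below, the second step held 5 mM ASA and 10 µM TGZ. In the TNF group it held TNF at 3 ng/ml, and in the vehicle group medium with 0.2% albumin. The titles and the design text of the vehicle arrays name no TNF, while their source text does, so whether those cells received it first is not settled. The combination titles include TNF, but the agents listed for their second step do not, so adding the drugs and withdrawing TNF cannot be told apart. Replicates were grown and harvested independently per the design text. The 6 collection days and 5 passages were not tied to arrays.

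TNF is an inflammatory cytokine made in fat tissue, and prolonged exposure makes cultured adipocytes insulin resistant. Aspirin acetylates and blocks cyclooxygenases, and high concentrations of salicylates also dampen inflammatory NF-kappaB signalling. Troglitazone is a thiazolidinedione that activates the nuclear receptor PPAR-gamma, a master regulator of fat cell genes, and thereby sensitises cells to insulin.

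Values are the deposited log ratios, taken as log2 of culture over pool, which is the likely direction from the dyes. They ran from -3.48 to 4.16, with array medians between -0.06 and 0.07 and no missing value. A feature is said to be higher or lower where limma's moderated test across all 6963 features gave a Benjamini-Hochberg adjusted p under 0.05. The vehicle values may have been centred for each feature. Of the linear combinations of the vehicle arrays, 1 had a variance of 0.000861, against 0.0136 for the next. The weights of that combination were not examined, so it need not be the mean of the vehicle arrays. If the values were centred, a vehicle mean near 0 says nothing about the level relative to the pool. The comparisons with vehicle then assume that the same offsets were taken from the TNF and combination arrays. If only vehicle arrays were centred, those comparisons set a treatment against the pool instead. Which of these holds was not tested. Of 2016 pairs of arrays, 33 correlated below -0.3 (lowest -0.707), and all 33 included a vehicle array. Means of the IRchip2 features ran from -1.23 to 1.79 over the combination arrays, from -1.38 to 0.997 over the TNF arrays and from -0.0573 to 0.101 over the vehicle arrays. Across the 73 features, the SD on an array had a median of 0.525 with the combination, 0.473 with TNF and 0.2015 with vehicle. Centring each feature over the vehicle arrays, if it was done, can lower the vehicle figure, which was not tested. Over the arrays of a group, the SD of an IRchip2 feature had a median of 0.235, 0.227 and 0.237 in the same order. In the SD across features 3 arrays stood apart, TNF replicate 15 (SD 0.904) and vehicle replicates 6 (0.758) and 17 (0.479). Without vehicle replicates 6 and 17, the numbers of IRchip2 features called in the 3 comparisons below were 36, 14 and 38 (49.3%, 19.2% and 52.1%). The MSK shares were then 58.1%, 26.6% and 63.9%. Without TNF replicate 15 the IRchip2 numbers were 39, 14 and 39. Leaving out any 1 array gave MSK shares of 56.6% to 60.1%, 23.6% to 25.7% and 59.4% to 62.8%.

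The 15 features ending in Hum lay in well rows a to g and columns 2 to 20, and the 58 ending in Pob lay in rows i to p and columns 1 to 22. The endings thus occupy separate rows of the plate, and ending and plate position cannot be told apart.

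The first comparison asked what TNF did relative to vehicle. Of the 73 features, 39 differed (53.4%), 18 higher and 21 lower, where 59.0% of all features and 58.4% of MSK features did. Of all features, 27.0% were higher and 32.0% lower. The median absolute difference was 0.161 for IRchip2 features, against 0.206 for MSK features and 0.209 for all. At the large end the order was the other way. The 90th percentile of the absolute difference was 0.760 for IRchip2 features and 0.477 for MSK features, and 13 IRchip2 features (17.8%) were called with a difference of at least 0.5, against 580 MSK features (8.70%) and 9.41% of all. Whether the collections differ in these shares was not tested. The median residual SD of a feature was 0.239 for IRchip2 and 0.254 for MSK.

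**Figure D1:**
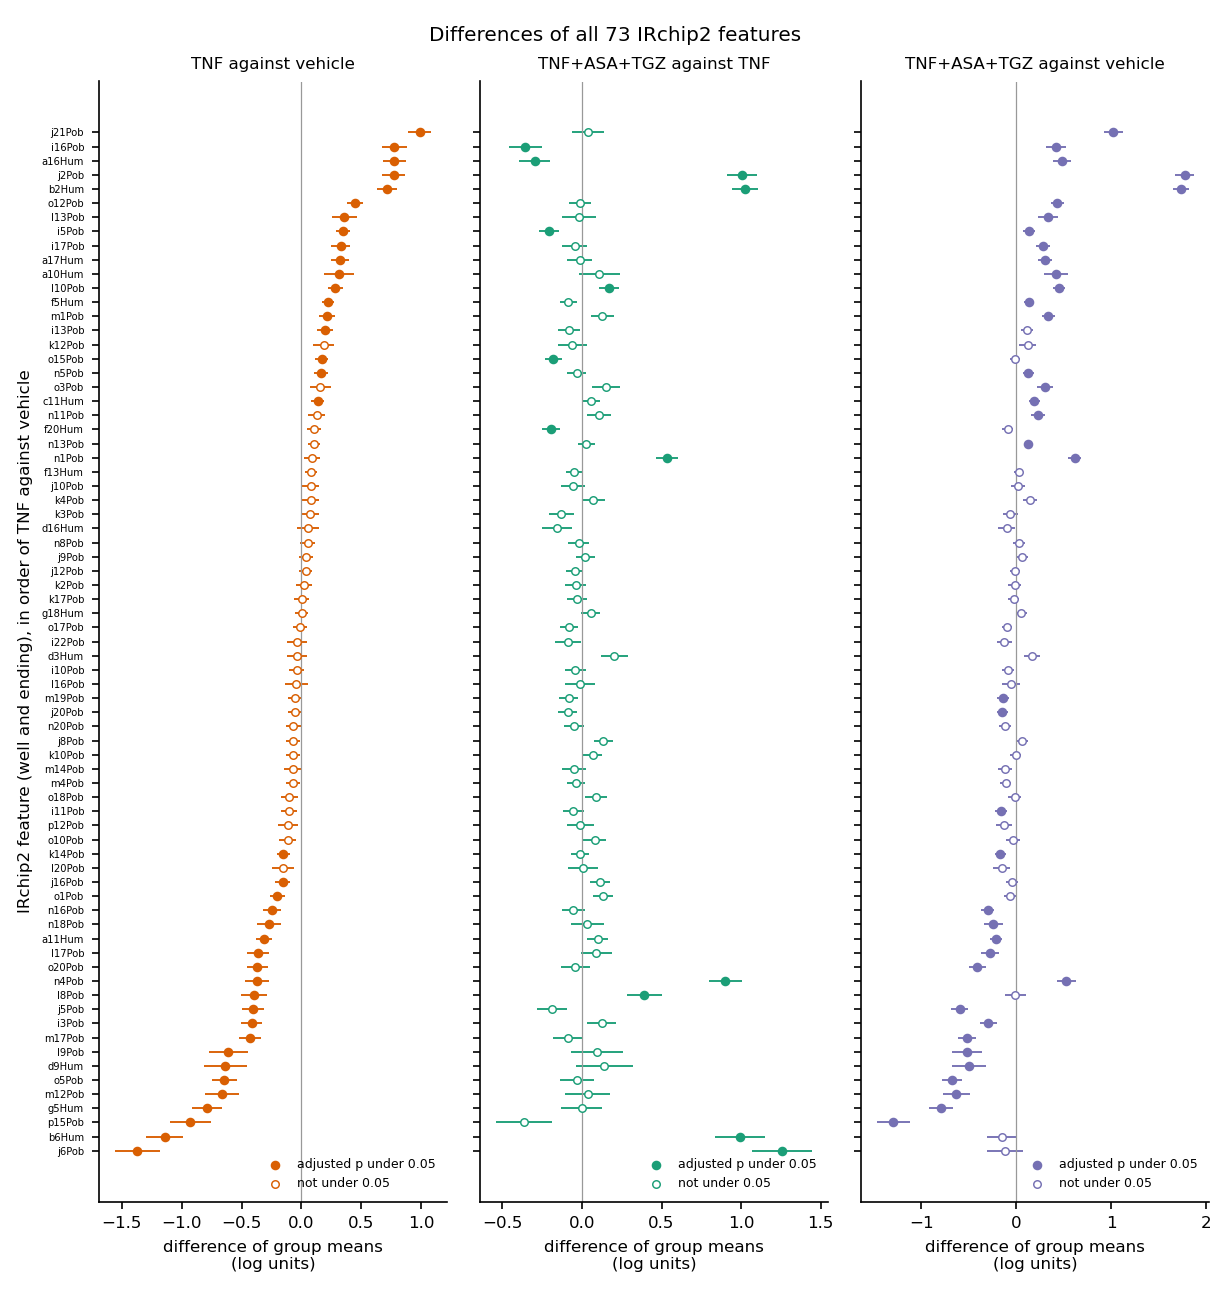
Fitted differences of the 73 IRchip2 features in log units (taken as log2), in the 3 comparisons, with called features marked apart from the others. Most features sit near 0 (median absolute difference 0.161 for TNF against vehicle) and a few reach beyond 1 in either direction.

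**Figure D2:**
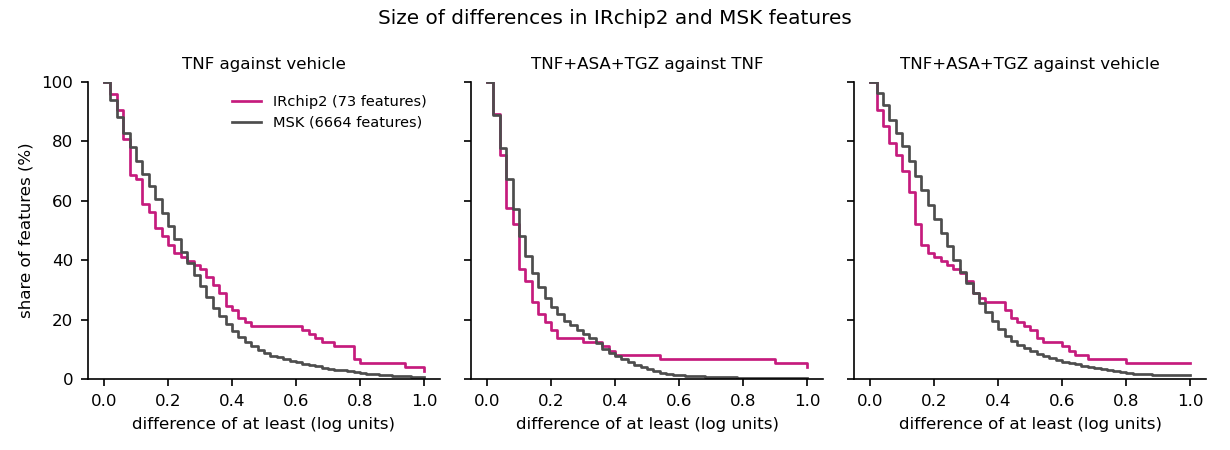
Share of features whose absolute difference reaches the size on the x axis (log units), for IRchip2 and MSK features in each comparison. In each panel the IRchip2 curve lies below the MSK curve at 0.2 and above it at 0.5, where it stands at 17.8% against 8.75% for TNF against vehicle.

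The largest falls with TNF were at IRchip2Aj6Pob and IRchip2Ab6Hum. IRchip2Aj6Pob had a lowest, median and highest value of -3.05, -1.50 and -0.33 on TNF arrays, against -2.48, -0.015 and 0.85 on vehicle arrays. All 21 TNF arrays were under the vehicle mean, although the groups overlapped. The lowest vehicle array was replicate 6. The difference was -1.37 ± 0.19 (SE, limma adjusted p = 9.39e-09), and -1.49 without vehicle arrays 6 and 17. IRchip2Ab6Hum ran at -1.91, -1.11 and 0.03 on TNF arrays, against -0.80, 0.035 and 0.40 on vehicle arrays. Here 20 of 21 TNF arrays were under the vehicle mean, and 18 were below every vehicle array. The difference was -1.14 ± 0.16 (SE, limma adjusted p = 7e-09).

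The largest rises with TNF were at IRchip2Aj21Pob and IRchip2Ai16Pob. IRchip2Aj21Pob had a lowest, median and highest value of 0.57, 0.99 and 1.58 on TNF arrays, against -0.27, -0.015 and 0.22 on vehicle arrays. It was the single IRchip2 feature whose TNF and vehicle arrays did not overlap, a property of 0.833% of all features. Its difference was 0.99 ± 0.10 (SE, limma adjusted p = 6.39e-13). IRchip2Ai16Pob ran at 0.24, 0.75 and 1.60 on TNF arrays, against -0.50, -0.10 and 0.58 on vehicle arrays. All 21 TNF arrays were above the vehicle mean and 13 were above every vehicle array. The difference was 0.78 ± 0.10 (SE, limma adjusted p = 3.26e-09). IRchip2Aa16Hum, in the same column 8 rows before it, differed by 0.78 ± 0.095 (SE, limma adjusted p = 4.23e-10), with values from 0.13 to 1.63 on TNF arrays against -0.59 to 0.39 on vehicle arrays.

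The second comparison asked what the combination did relative to TNF alone. It differed for 13 of the 73 features (17.8%), 8 higher and 5 lower, where 24.8% of all features and 24.7% of MSK features did. After each array was scaled to a common median absolute deviation (MAD), the split was 7 higher and 2 lower. Of all features, 12.0% were higher and 12.7% lower. The median absolute difference was 0.0819 for IRchip2 features and 0.0957 for both MSK and all features. The 90th percentiles were 0.365 for IRchip2 and 0.362 for MSK. Differences of at least 0.5 were called for 6 IRchip2 features (8.22%), all of them higher, against 215 MSK features (3.23%) and 3.45% of all. The TNF arrays serve in both of these comparisons, on opposite sides of the difference.

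Of the 13 features, 8 had been changed by TNF in the opposite direction, which is 11% of IRchip2 features, where 11% of all (769) and 11.1% of MSK features did so. Another 3 moved the same way in both comparisons (4.11%, where 3.13% of all did). For the remaining 2, the difference between TNF and vehicle did not pass the test. Features in these sets beyond the largest were looked at after their values were seen.

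**Figure D3:**
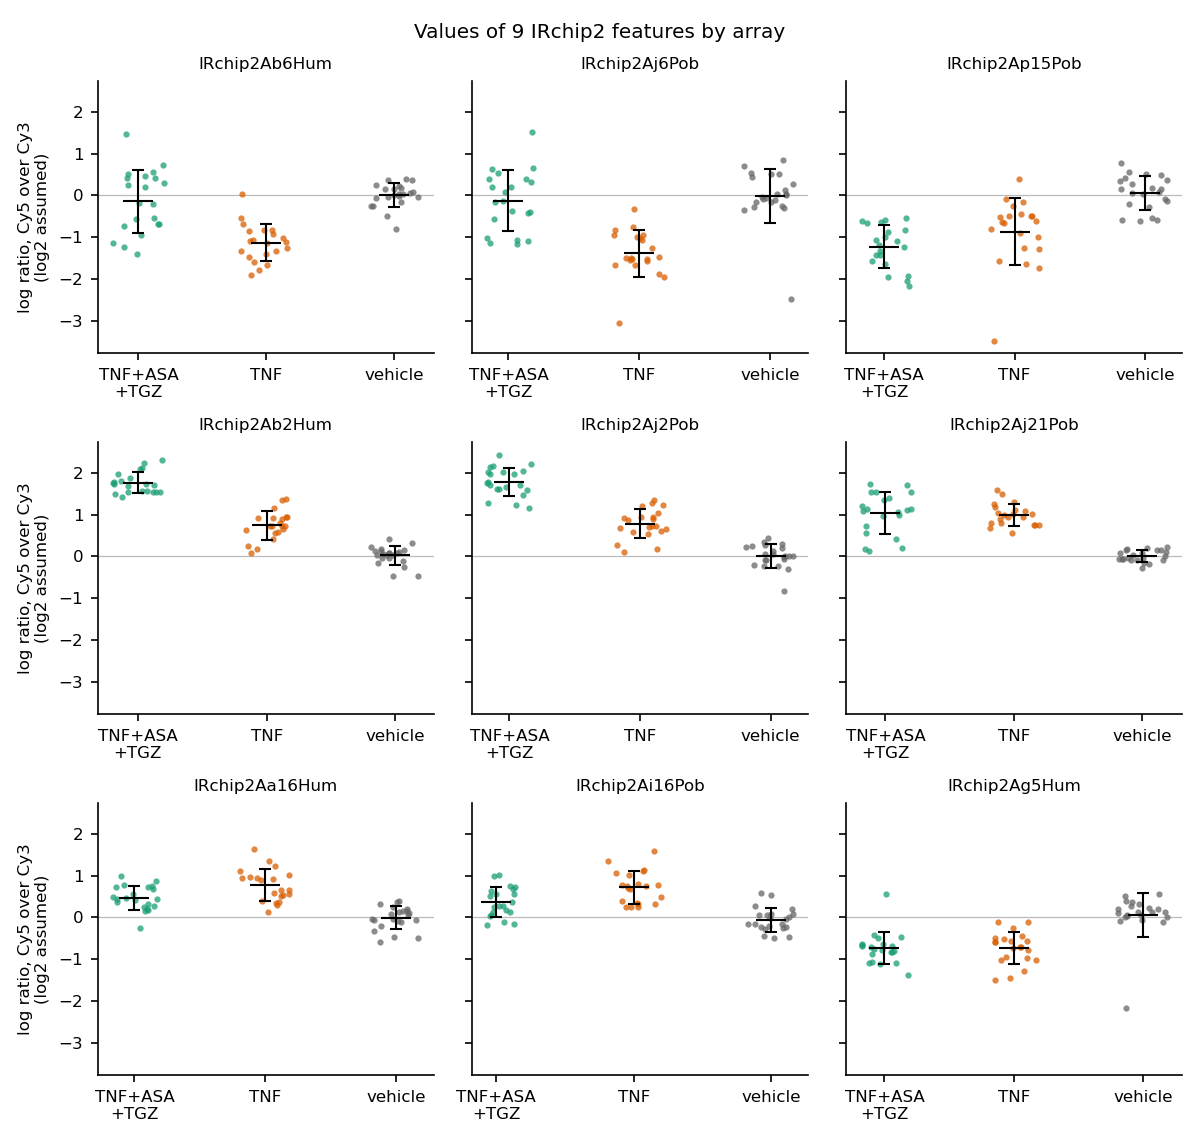
Deposited log ratios (taken as log2) of 9 IRchip2 features, those with the largest rises and falls by comparison and by pattern, 1 point per array, in the combination (21), TNF (21) and vehicle (22) groups, with group means and SD. IRchip2Ab2Hum and IRchip2Aj2Pob are highest with the combination and lowest with vehicle, and IRchip2Ab6Hum and IRchip2Aj6Pob are low with TNF alone.

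IRchip2Ab2Hum and IRchip2Aj2Pob were the same-way features with the largest differences. IRchip2Ab2Hum had a lowest, median and highest value of 1.43, 1.74 and 2.31 on combination arrays, 0.07, 0.72 and 1.37 on TNF arrays, and -0.48, 0.065 and 0.42 on vehicle arrays. Every combination array lay above every TNF array, which held for no other IRchip2 feature and for 0.129% of all features. The combination exceeded TNF by 1.02 ± 0.084 (SE, limma adjusted p = 1.09e-15), TNF exceeded vehicle by 0.72 ± 0.083 (limma adjusted p = 7.91e-11), and the combination exceeded vehicle by 1.74 ± 0.083 (limma adjusted p = 2.15e-28), a 3.34-fold difference if the logs are base 2.

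IRchip2Aj2Pob, the well 8 rows further in the same column, ran at 1.15, 1.75 and 2.43 on combination arrays, 0.11, 0.73 and 1.35 on TNF arrays, and -0.84, 0.005 and 0.45 on vehicle arrays. Of 21 combination arrays, 18 were above every TNF array. The combination exceeded TNF by 1.00 ± 0.097 (SE, limma adjusted p = 5.03e-13) and vehicle by 1.77 ± 0.096 (limma adjusted p = 2.51e-25), which is 3.42-fold in base 2. The third same-way feature, IRchip2Al10Pob, was smaller, at 0.17 for the combination against TNF (limma adjusted p = 0.041), a call lost when any of several single arrays was left out (adjusted p up to 0.0824), with a common MAD (adjusted p = 0.227), with quantile normalization (adjusted p = 0.206), and within replicates 1 to 11 (adjusted p = 0.138) and 12 and above (adjusted p = 0.366).

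Of the 8 opposed features, 4 were lower with TNF than with vehicle and higher with the combination than with TNF. IRchip2Aj6Pob had a lowest, median and highest value of -1.17, -0.14 and 1.51 on combination arrays, and all 21 were above the TNF mean. The combination exceeded TNF by 1.26 ± 0.19 (SE, limma adjusted p = 3.42e-07) and differed from vehicle by -0.12 ± 0.19 (limma adjusted p = 0.598). IRchip2Ab6Hum ran at -1.40, -0.19 and 1.48 on combination arrays, a spread (SD 0.757, n = 21) above that of TNF arrays (0.449, n = 21) and vehicle arrays (0.283, n = 22). The combination exceeded TNF by 0.99 ± 0.16 (SE, limma adjusted p = 8.85e-07) and differed from vehicle by -0.15 ± 0.16 (limma adjusted p = 0.395). Misses of the threshold do not show that the vehicle value was regained.

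For both features the fitted difference was smaller among replicates 1 to 11 than among replicates 12 and above. For the combination against TNF, IRchip2Aj6Pob differed by 0.85 among replicates 1 to 11 and by 1.71 among replicates 12 and above. IRchip2Ab6Hum differed by 0.64 and 1.38 in those sets. Whether the difference varies between the sets was not tested. What separates the sets was not tested either, since the labels tie neither day nor passage to a number.

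IRchip2An4Pob was below vehicle with TNF and above vehicle with the combination. It had a lowest, median and highest value of -0.16, 0.53 and 1.13 on combination arrays, -2.02, -0.22 and 0.06 on TNF arrays, and -0.30, -0.045 and 0.51 on vehicle arrays. Of 21 combination arrays, 20 were above every TNF array. The combination exceeded TNF by 0.90 (limma adjusted p = 1.67e-10) and vehicle by 0.53 (limma adjusted p = 1.18e-05), and TNF differed from vehicle by -0.37 (limma adjusted p = 0.00157). Without TNF replicate 15, the lowest array, the last difference was -0.29 (limma adjusted p = 0.00237). The fourth, IRchip2Al8Pob, stood 0.39 above TNF with the combination, and TNF differed from vehicle by -0.40. Its difference from TNF was 0.18 among replicates 1 to 11, which did not pass (limma adjusted p = 0.392), and 0.62 among replicates 12 and above (adjusted p = 0.0103).

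The other 4 opposed features were higher with TNF and lower with the combination than with TNF. IRchip2Aa16Hum had a lowest, median and highest value of -0.25, 0.45 and 0.99 on combination arrays, and 18 of 21 were below the TNF mean. Its differences were -0.30 ± 0.10 for the combination against TNF (SE, limma adjusted p = 0.0151) and 0.48 ± 0.095 for the combination against vehicle (limma adjusted p = 2.03e-05). IRchip2Ai16Pob ran at -0.18, 0.26 and 1.01 on combination arrays, with 17 of 21 below the TNF mean. It differed from TNF by -0.36 ± 0.10 (SE, limma adjusted p = 0.00619) and from vehicle by 0.42 ± 0.10 (limma adjusted p = 0.000403). Both were thus above vehicle and below TNF with the combination. For IRchip2Aa16Hum the difference from TNF did not pass within replicates 1 to 11 (-0.37, limma adjusted p = 0.0663), within replicates 12 and above (-0.22, adjusted p = 0.323) or with arrays scaled to a common MAD (-0.27, adjusted p = 0.056). For IRchip2Ai16Pob it was -0.51 within replicates 1 to 11 (limma adjusted p = 0.00768) and -0.19 within replicates 12 and above (adjusted p = 0.388). IRchip2Ai5Pob and IRchip2Ao15Pob were smaller, at -0.21 and -0.18 for the combination against TNF, and the call of IRchip2Ai5Pob was lost with a common MAD (limma adjusted p = 0.0569) and that of IRchip2Ao15Pob within replicates 12 and above (adjusted p = 0.382).

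The 2 features that differed only in the combination against TNF step, of these first 2 comparisons, were IRchip2An1Pob and IRchip2Af20Hum. IRchip2An1Pob had a lowest, median and highest value of 0.10, 0.61 and 0.95 on combination arrays, -0.41, 0.08 and 0.41 on TNF arrays, and -0.43, 0.015 and 0.42 on vehicle arrays. TNF and vehicle arrays lay over each other, and 18 of 21 combination arrays were above all TNF arrays. The combination exceeded TNF by 0.53 (limma adjusted p = 3.29e-09) and vehicle by 0.62 (limma adjusted p = 4.91e-12), while TNF differed from vehicle by 0.085 (limma adjusted p = 0.275). IRchip2Af20Hum differed by -0.20 for the combination against TNF (limma adjusted p = 0.0085), a call lost with a common MAD (adjusted p = 0.0928) and with quantile normalization (adjusted p = 0.0843).

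The third comparison asked how the combination stood relative to vehicle. Again 39 of the 73 features differed (53.4%), 21 higher and 18 lower, where 60.8% of all features and 60.7% of MSK features did. Of all features, 28.8% were higher and 31.9% lower. The median absolute difference was 0.146 for IRchip2 features, against 0.216 for MSK and 0.218 for all, and the 90th percentiles were 0.614 for IRchip2 and 0.486 for MSK. Called differences of at least 0.5 numbered 12 among IRchip2 features (16.4%) and 625 among MSK features (9.38%), with 10.3% of all. The vehicle arrays serve in this comparison and in the first.

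IRchip2Ap15Pob and IRchip2Ag5Hum fell most relative to vehicle. IRchip2Ap15Pob had a lowest, median and highest value of -2.16, -1.20 and -0.55 on combination arrays, -3.48, -0.63 and 0.38 on TNF arrays, and -0.62, 0.11 and 0.78 on vehicle arrays. Of 21 combination arrays, 18 were below every vehicle array. The combination differed from vehicle by -1.29 ± 0.17 (SE, limma adjusted p = 3.8e-09) and TNF by -0.93 ± 0.17 (limma adjusted p = 7.43e-06). The combination differed from TNF by -0.37 ± 0.17 (limma adjusted p = 0.131), and without TNF replicate 15, the lowest TNF array, by -0.50 (limma adjusted p = 0.00723), which passed.

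IRchip2Ag5Hum ran at -1.37, -0.77 and 0.56 on combination arrays, -1.50, -0.71 and -0.11 on TNF arrays, and -2.17, 0.125 and 0.55 on vehicle arrays. Its lowest vehicle array was replicate 6, and it reached below all arrays of the other groups. The combination differed from vehicle by -0.79 ± 0.13 (SE, limma adjusted p = 4.49e-07), TNF from vehicle by -0.79 ± 0.13 (limma adjusted p = 5.02e-07), and the combination from TNF by -0.0029 ± 0.13 (limma adjusted p = 0.991). IRchip2Aj21Pob likewise stood at 0.13, 1.12 and 1.73 on combination arrays, 1.02 ± 0.10 above vehicle (SE, limma adjusted p = 8.05e-14) and 0.036 ± 0.10 from TNF (limma adjusted p = 0.853). Its combination arrays spread more (SD 0.498, n = 21) than its TNF arrays (0.261, n = 21) and vehicle arrays (0.135, n = 22). Combination and vehicle arrays did not overlap for 2 features, IRchip2Ab2Hum and IRchip2Aj2Pob, where this held for 0.876% of all.

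By ending, the 15 Hum features held 10 called in the first comparison (6 higher, 4 lower), 4 in the second (2 and 2) and 9 in the third (6 and 3), or 66.7%, 26.7% and 60%. The 58 Pob features held 29 (12 higher, 17 lower), 9 (6 and 3) and 30 (15 and 15), or 50%, 15.5% and 51.7%. Of all features 59.0%, 24.8% and 60.8% were called. The median absolute difference was 0.311 in Hum and 0.157 in Pob features in the first comparison, 0.109 and 0.0748 in the second, and 0.193 and 0.138 in the third. Whether the endings differ was not tested.

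Several of the features named above lie 8 well rows apart in the same column, a Hum well and a Pob well, and the arrangement was noticed after the values were seen. Such a counterpart existed for 13 of the 15 Hum features. For TNF against vehicle, both features of a pair were called in the same direction in 7 pairs, 1 of them in 2 pairs and neither in 4. No pair was called in opposite directions in any comparison, where both features were called in 7, 3 and 7 pairs. Calls were not counted for the other kinds of pairs below, so this cannot be set against them. The absolute gap between the differences of a pair had a median of 0.0989 in the first comparison, 0.0605 in the second and 0.0468 in the third. For Hum and Pob features in the same column at another row step it was 0.379, 0.104 and 0.402, and for those in other columns 0.398, 0.159 and 0.33. For MSK features 8 rows apart in the same plate and column it was 0.266, 0.159 and 0.258. The largest gap was at IRchip2Aa10Hum, at 0.42 for the combination against vehicle, with IRchip2Ai10Pob at -0.082.

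**Figure D4:**
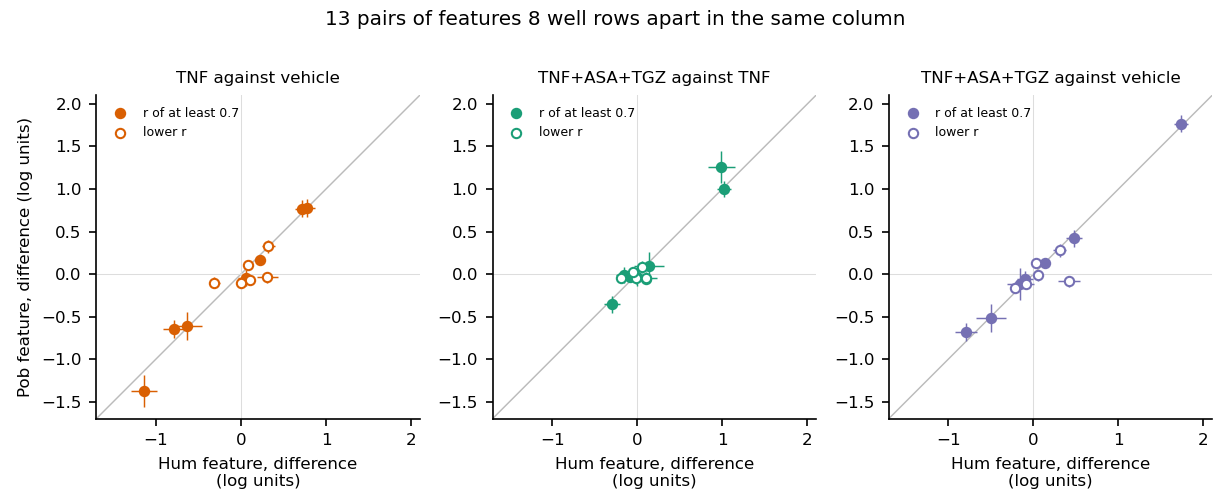
Differences (log units) of each Hum feature and of the Pob feature 8 rows further in the same column, 13 pairs in each of the 3 comparisons, with standard errors and the line of equal values. Points lie near the line, with the largest gap of 0.503 at IRchip2Aa10Hum and IRchip2Ai10Pob for the combination against vehicle.

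Some of the pairs also tracked each other from array to array. The Pearson correlation of deviations from group means over the 64 arrays was 0.964 for IRchip2Ad9Hum with IRchip2Al9Pob, 0.925 for IRchip2Ag5Hum with IRchip2Ao5Pob and 0.859 for IRchip2Ab6Hum with IRchip2Aj6Pob. It was 0.732 for IRchip2Ab2Hum with IRchip2Aj2Pob and 0.727 for IRchip2Aa16Hum with IRchip2Ai16Pob. In all, 7 of 13 pairs reached 0.7, and the other 6 lay between -0.0821 and 0.391. Without vehicle arrays 6 and 17 and TNF array 15, the 7 pairs lay between 0.723 and 0.954. Taken within each set of replicate numbers, they lay between 0.719 and 0.963. A pair shares arrays, plate and well column. Hum and Pob features of the same column at another row step had a median of 0.0599 (34 pairs), those of different columns 0.0177 (823 pairs), and MSK features 8 rows apart in the same plate and column 0.232 (2285 pairs). A correlation of at least 0.5 was reached by 53.8% of matched pairs and by 5.88%, 3.28% and 15.9% of these other classes. Whether a pair holds the same transcript cannot be told from identifiers.

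**Figure D5:**
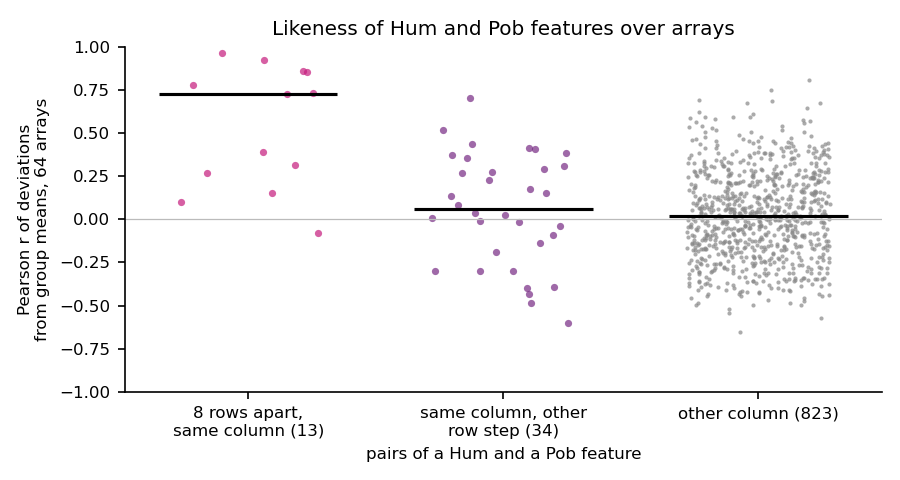
Pearson correlation of deviations from group means over 64 arrays, for Hum and Pob features at matched positions (13 pairs), in the same column at another row step (34), and in other columns (823). Bars mark the medians of 0.727, 0.0599 and 0.0177, and 7 of the 13 matched pairs lie above 0.7.

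Since 7 of the 13 matched pairs tracked each other, the counts were repeated with each of the 13 pairs averaged, which left 60 positions. The 6 pairs with lower correlation were averaged as well, and correlated features at other positions were not. Then 32 of 60 (53.3%) differed in the first comparison, 9 (15%) in the second and 30 (50%) in the third, beside 59.0%, 24.8% and 60.8% of all features. Those called with a difference of at least 0.5 numbered 8 (13.3%), 4 (6.67%) and 10 (16.7%), beside 9.41%, 3.45% and 10.3% of all features.

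By the same correlation over the 64 arrays, the 2 features of the whole table most like each of 9 named features were looked up, those with the largest rises and falls by comparison and among opposed and same-way features. Of these 18 places, 5 were taken by IRchip2 features and 13 by others, with correlations from 0.677 to 0.925. IRchip2Ab2Hum and IRchip2Aj2Pob were each other's most like feature, as were IRchip2Ab6Hum and IRchip2Aj6Pob, and IRchip2Ag5Hum was most like IRchip2Ao5Pob. IRchip2Aa16Hum was instead most like MSK41i14 and MSK17m22 (both 0.746), and IRchip2Ai16Pob most like MSK42a7 (0.785) and MSK29m16 (0.784). IRchip2Aj21Pob was most like MSK11i17 (0.782) and MMC02c13 (0.742), and IRchip2Ap15Pob most like MSK03l8 (0.686) and MSK41d15 (0.677). The second most like features were MSK04o11 (0.705) for IRchip2Ab2Hum, MSK43k22 (0.71) for IRchip2Aj2Pob, MSK22k14 (0.759) for IRchip2Ab6Hum, MSK30o9 (0.83) for IRchip2Aj6Pob and MSK27c9 (0.841) for IRchip2Ag5Hum. Features alike from array to array could differ in their response: MSK30o9 was -0.25 in the first comparison and 0.11 in the second, where IRchip2Aj6Pob was -1.37 and 1.26.

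Further features called with a difference of at least 0.5 for TNF against vehicle, looked at after their values were seen, were IRchip2Am12Pob, IRchip2Ao5Pob, IRchip2Ad9Hum and IRchip2Al9Pob, all lower with TNF. IRchip2Am12Pob had a lowest, median and highest value of -2.07, -0.62 and 0.17 on TNF arrays, against -2.11, 0.16 and 0.52 on vehicle arrays. Of 21 TNF arrays, 20 were under the vehicle mean, but none was below vehicle replicate 6, the lowest vehicle array. Its difference was -0.66 ± 0.14 (SE, limma adjusted p = 4.87e-05). The other 3 differed by -0.64 (IRchip2Ao5Pob), -0.64 (IRchip2Ad9Hum) and -0.61 (IRchip2Al9Pob). None of the 4 differed between the combination and TNF at the threshold, with limma adjusted p from 0.657 to 0.903.

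Of the 73 features, 47 were called in at least 1 comparison (64.4%, where 76.3% of all features and 76.1% of MSK features were), and 26 in none. Those 26, of which 4 end in Hum and 22 in Pob, had differences between -0.157 and 0.203 in the 3 comparisons and a median residual SD of 0.214. With 21 or 22 arrays a group, the number of arrays limits how small a difference can be called.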

How the data were processed

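The deposited table holds log ratios of 2-colour arrays for 6963 features and 64 samples, taken as log2, since no source here gives the base. Per the labels, Cy5 carried culture RNA and Cy3 the pool, and 20 µg of total RNA was labelled. Scanner, background correction and normalization: not given in the sources used here. The deposited values entered the fit unaltered. Arrays were grouped by title. limma 3.58.1 in R 4.3.3 (lmFit, eBayes) fitted group means over all 64 arrays and all features, two-sided, with Benjamini-Hochberg adjustment over all features and a threshold of 0.05. Its p-values treat arrays as independent. Summaries and figures used Python 3.11.15. The procedure was tested on simulated data.

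Named features were the 2 largest rises and 2 largest falls among called members in each comparison and among opposed and same-way members, with the 2 features of the table most like each. Others named were chosen after their values were seen. The members and lists were chosen with earlier results of these data known. Replicate numbers recur in the 3 groups, but the labels state no pairing. Alternatives covered array scaling, thresholds, replicate blocks, subsets of arrays, array weights, leaving out each array, and, after seeing the data, averaging features at matched positions.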

Additional observations from a re-analysis of the deposited data

How the results depend on the processing

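No called difference changed sign under the alternatives run among the named features checked, which are given below. Counts of 3 follow the order TNF against vehicle, combination against TNF, combination against vehicle. With a common MAD, 31, 9 and 30 IRchip2 features were called (42.5%, 12.3% and 41.1%). The MSK shares fell to 43.3%, 18.7% and 44.2%. Quantile normalization gave 31, 10 and 31 IRchip2 features (42.5%, 13.7% and 42.5%) and MSK shares of 44.5%, 19.4% and 44.8%. The shares called thus depended on array scaling in both collections. Against a minimum difference of 1.2-fold (limma's treat), a stricter null, the IRchip2 features called numbered 12, 6 and 12 (16.4%, 8.22% and 16.4%). The MSK shares were 9.87%, 2.15% and 10.4%. Here the IRchip2 share was above the MSK share in all 3 comparisons, the reverse of the order without a minimum difference. With this setting 2 IRchip2 features were opposed. The shares over all features were not computed for it. With replicates 1 to 11 alone, 28, 10 and 25 IRchip2 features were called (38.4%, 13.7% and 34.2%). The MSK shares were then 49.7%, 15.2% and 47.4%. With replicates 12 and above alone, 29, 8 and 25 IRchip2 features were called (39.7%, 11% and 34.2%), and 4 were opposed. The MSK shares were then 37%, 12.5% and 41.4%. In this set the IRchip2 share was above the MSK share in the first comparison, unlike with all arrays and no minimum difference. These subsets hold fewer arrays. Leaving out each array in turn gave 37 to 40, 12 to 15 and 35 to 40 IRchip2 features called in the 3 comparisons, MSK shares of 56.6% to 60.1%, 23.6% to 25.7% and 59.4% to 62.8%, 8 to 8 opposed and 2 to 4 same-way features, and median absolute differences of 0.141 to 0.187, 0.0677 to 0.0914 and 0.14 to 0.154. A fit with a block for each replicate number called 41, 16 and 41 IRchip2 features (56.2%, 21.9% and 56.2%). It called 63.3%, 29.2% and 65.9% of MSK features, so the shares rose in both collections. Same-numbered arrays correlated above 0.1 in 19, 18 and 17 of 21 pairs, with ranges of -0.00612 to 0.672, -0.168 to 0.66 and -0.0226 to 0.507. Among 21 candidates, arrays correlated best with their own number in 11, 9 and 6 cases. Arrays of the same number thus shared structure in the data. The fit without a block, which gave the errors and p-values above, treats arrays as independent. The labels state no pairing and not every pair passed 0.1, so the block was kept as an alternative. The named features checked were the 9 chosen by rule and those called between the combination and TNF. Over their 48 differences and 11 alternatives, 483 of 528 values kept their side of the threshold, 44 lost the call and 1 gained it. Other IRchip2 features named above were not in this check, among them IRchip2Am12Pob, IRchip2Ao5Pob, IRchip2Ad9Hum, IRchip2Al9Pob and IRchip2Aa10Hum. No value was missing, so a filter on missing values changed nothing. The number of arrays limits precision, and signal over background is unknown.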
